A study of Mus musculus with 9 samples.

Results

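Oxidative phosphorylation subunit genes encode the nuclear part of the 5 respiratory complexes of the mitochondrial inner membrane. They were chosen here by gene name (Nduf, Sdh, Uqcr, Cox and Atp5 subunits) among protein-coding genes with an H3K4me3 or PLAGL1 peak within 3000 bp of the transcription start site (TSS). Of 88 protein-coding genes with such names, 68 met the rule, through 69 H3K4me3 peaks and 2 PLAGL1 peaks, and 52 KLF4 consensus sites overlapped these peaks. Both genes with a PLAGL1 peak also had an H3K4me3 peak. The presence of a peak chose the members, so it is given as a description.

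The data are CUT&Tag, which sequences DNA cut by a transposase brought to a protein or histone mark by its antibody, in mouse periosteal stem and progenitor cells. These cells line the bone surface, and here came from the angle of the mandible of animals 8 weeks old and were held for 3 days in a medium that induces bone formation. It held dexamethasone, β-glycerophosphate at 5 mM and ascorbic acid at 50 µg/ml. Cells given a lentivirus received it at a multiplicity of infection of 10, and the H3K4me3 library had none. Single libraries of Plagl1fl/fl cells gave H3K4me3, HA-tagged PLAGL1 and IgG, the last 2 from cells given a Plagl1-overexpressing lentivirus. FLAG-tagged KLF4 was supplied by a Klf4-overexpressing lentivirus and profiled in 3 libraries of Plagl1fl/fl cells and 3 of Ctsk-iCre;Plagl1fl/fl cells, where a recombinase driven by the cathepsin K gene deletes Plagl1. Both factors were therefore measured as tagged, overexpressed proteins. The titles of all 6 of these libraries name KLF4 and were used for grouping, although the vector named in their treatment differs from library to library, from Klf4 to Klf9. Whether Plagl1 was lost cannot be checked in these tables.

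Electrons from NADH enter the respiratory chain at complex I and electrons from succinate at complex II. They pass through complex III to complex IV, which reduces oxygen, and complex V (ATP synthase) uses the resulting proton gradient to make ATP. Nearly all subunits are encoded in the nucleus and used in every tissue with mitochondria, but several complex IV subunits come as a widely expressed and a tissue-restricted isoform, most of the latter made in heart and skeletal muscle or in testis. Their promoters are known for binding sites of the factors NRF1, GABP (an ETS factor) and YY1. H3K4me3 is a histone mark of active promoters. PLAGL1 is a zinc-finger factor encoded by an imprinted gene, and KLF4 a Krüppel-like factor that binds GC-rich and CACCC sequences.

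The promoters that carry the comparisons below are shown first, as the RefSeq window from 250 bases before to 50 bases after the start, read 5′ to 3′ on the minus strand, on which all of these genes lie (build GRCm38.p6). Capitals mark exact matches on either strand to the cores CCGGAAG (ETS and GABP), NRF1 (its palindromic core, first in capitals in the Atp5mc2 window), AAGATGGC (YY1), CACCC (KLF), GGGCGG (SP) and GGGGCCCC (PLAGL1). The peaks are placed on mm39, so the windows were matched to genes by identifier and not to peaks by coordinate. Atp5mc1 (chr11:96075582-96075881) and Ndufs8 (chr19:3912725-3913024) are the members with a PLAGL1 peak, and Atp5mc2 (chr15:102670998-102671297) encodes the same mature c subunit as Atp5mc1 but had no PLAGL1 peak.
Atp5mc1: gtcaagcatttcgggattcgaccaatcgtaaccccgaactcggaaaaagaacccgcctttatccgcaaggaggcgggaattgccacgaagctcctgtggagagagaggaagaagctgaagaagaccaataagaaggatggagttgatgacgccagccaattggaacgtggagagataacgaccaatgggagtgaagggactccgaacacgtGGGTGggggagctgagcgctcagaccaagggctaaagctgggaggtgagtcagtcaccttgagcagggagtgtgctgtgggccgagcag
Ndufs8: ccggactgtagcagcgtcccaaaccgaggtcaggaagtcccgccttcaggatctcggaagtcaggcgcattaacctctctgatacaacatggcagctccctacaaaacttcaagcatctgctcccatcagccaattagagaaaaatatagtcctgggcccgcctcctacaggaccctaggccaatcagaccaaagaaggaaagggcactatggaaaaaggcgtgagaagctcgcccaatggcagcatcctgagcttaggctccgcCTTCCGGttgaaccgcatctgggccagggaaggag
Atp5mc2: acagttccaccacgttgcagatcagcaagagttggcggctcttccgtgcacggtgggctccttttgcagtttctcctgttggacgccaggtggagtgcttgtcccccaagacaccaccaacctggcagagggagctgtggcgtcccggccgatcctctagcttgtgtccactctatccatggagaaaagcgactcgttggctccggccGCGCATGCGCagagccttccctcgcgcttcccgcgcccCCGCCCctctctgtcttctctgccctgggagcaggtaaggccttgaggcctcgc
The PLAGL1 core was in none of these 3 windows. The PLAGL1 peaks begin farther upstream than the windows, at -429 bp for Atp5mc1 and -417 bp for Ndufs8. The rest of these peaks was not searched, so the core may lie there. Atp5mc1 held 1 CACCC match, Ndufs8 1 ETS match, and Atp5mc2 1 NRF1 and 1 SP match.

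Ndufa13 (chr8:69901971-69902270) had the strongest KLF4 signal among the members. Cox7c (chr13:86046746-86047045) shared the highest H3K4me3 score of complex IV but had no KLF4 site.
Ndufa13: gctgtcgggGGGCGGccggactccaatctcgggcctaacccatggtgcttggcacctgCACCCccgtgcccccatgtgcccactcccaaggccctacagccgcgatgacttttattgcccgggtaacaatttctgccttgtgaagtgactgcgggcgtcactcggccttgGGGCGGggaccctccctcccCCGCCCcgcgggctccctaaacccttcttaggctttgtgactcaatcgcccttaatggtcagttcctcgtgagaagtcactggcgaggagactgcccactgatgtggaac
Cox7c: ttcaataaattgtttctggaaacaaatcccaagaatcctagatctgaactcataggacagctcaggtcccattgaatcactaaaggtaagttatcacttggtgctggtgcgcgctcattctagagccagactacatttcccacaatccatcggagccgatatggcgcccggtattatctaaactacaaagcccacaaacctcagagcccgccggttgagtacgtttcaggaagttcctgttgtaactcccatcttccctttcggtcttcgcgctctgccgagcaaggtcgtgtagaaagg
The Ndufa13 window held 3 SP matches and 1 CACCC match at a GC content of 62.7%. The Cox7c window held none of the cores at a GC content of 48.0%. These genes are examples, and others went the other way. Uqcr10 had a KLF4 site, though its window held none of the cores at a GC content of 43.3%. Ndufa5 had no site, though its window held NRF1, CACCC and SP matches at 62.3%. The Ndufa13 site reached from -1283 to 284 bp around the TSS, so the window covers only part of it.

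Cox8a (chr19:7217567-7217866) and Cox8b (chr7:140900397-140900696) are the widely expressed and the muscle isoform of the same complex IV subunit, and the first was among the most strongly marked members while the second had no peak.
Cox8a: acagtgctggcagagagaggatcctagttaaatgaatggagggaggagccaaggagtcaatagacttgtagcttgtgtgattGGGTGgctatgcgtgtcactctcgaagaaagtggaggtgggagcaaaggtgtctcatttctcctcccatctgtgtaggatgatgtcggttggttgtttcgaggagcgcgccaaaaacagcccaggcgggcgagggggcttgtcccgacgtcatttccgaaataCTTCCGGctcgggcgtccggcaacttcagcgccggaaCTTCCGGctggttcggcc
Cox8b: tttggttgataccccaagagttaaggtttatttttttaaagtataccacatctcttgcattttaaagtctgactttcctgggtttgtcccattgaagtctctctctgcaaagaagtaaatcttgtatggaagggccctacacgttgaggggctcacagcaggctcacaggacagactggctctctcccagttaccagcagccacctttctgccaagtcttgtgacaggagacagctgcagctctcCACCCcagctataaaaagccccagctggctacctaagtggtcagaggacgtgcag
Cox8a held 2 ETS matches and 1 CACCC match, and Cox8b held 1 CACCC match.

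The first question was which subunit genes carried the promoter mark. H3K4me3 peaks were named for 68 of the 88 genes, or 77.3% (Wilson 95% interval 67.5% to 84.8%), against 52.2% of 21896 protein-coding genes. By complex, 29 of 38 genes of complex I, 4 of 4 of complex II, 7 of 8 of complex III, 13 of 20 of complex IV and 15 of 18 of complex V were marked. These intervals cover counting error only, and H3K4me3 came from 1 library, so its values have no replicate check. No test of the list against other genes was made, here or for the other counts.

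**Figure D1:**
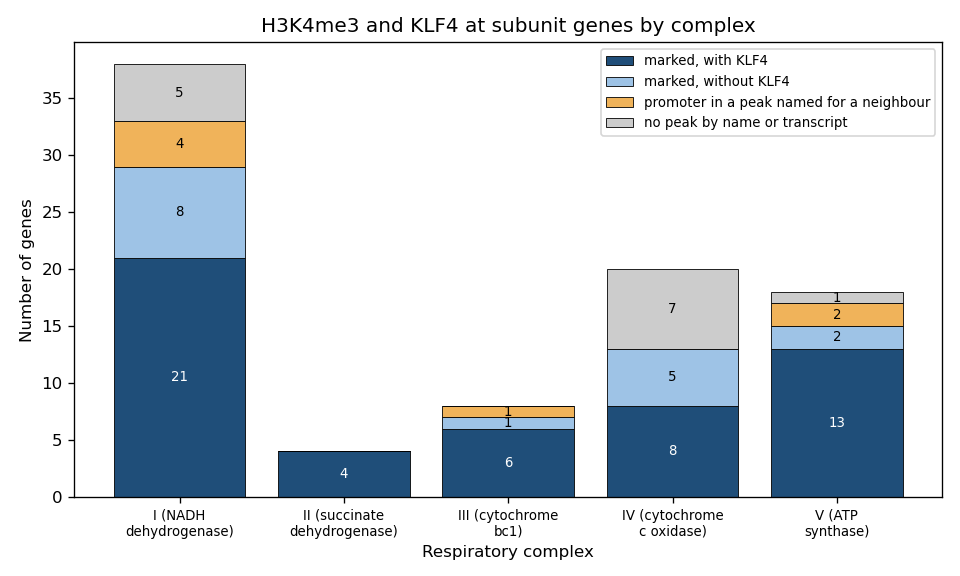
Number of genes (y axis) of each respiratory complex (x axis), stacked by whether an H3K4me3 peak near the TSS was named for the gene and carried a KLF4 site, or the promoter lay in a peak named for a neighbouring gene. Complex II is filled by 4 marked genes with KLF4, and the 7 genes of complex IV with no peak include 6 tissue-restricted isoforms.

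Members were marked strongly. The score is the authors' own value of each peak and is used only within its list, where it started at 20. The highest score per gene had a median of 1327.5 in the members and of 852 in all 11421 marked protein-coding genes, whose middle 50% ran from 461 to 1179. Of the 68 members, 55 lay above 852, and only 15.7% of all marked genes lay above the members' median. Their peaks were not wider, with a median of 1200 bp against 1322 bp.

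Complex I, the NADH dehydrogenase, had a median score of 1149 and the widest range of the 5 complexes, from 616 to 2246. Its highest score was at Ndufb8, an accessory subunit, with 2246 (chr19:44543030-44543945, mm39) and rank 11 among all 16251 H3K4me3 peaks. Ndufb4 with 1778 and Ndufb2 with 1747, both also accessory, came next. The 7 core subunits, which carry the flavin and iron-sulfur clusters or hold their scaffold and are shared with bacteria, scored lower: the 6 marked ones ran from Ndufs8 with 616, the lowest of the complex, over Ndufs7 with 988 to Ndufv1 with 1341. Their median was 1044.5, against 1208 for 23 marked accessory subunits, and the ranges overlapped.

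Complex II, succinate dehydrogenase, links the chain to the citric acid cycle and was marked throughout, with a median of 1604. Sdha, the flavoprotein, scored 1897 (rank 100) and Sdhb, the iron-sulfur subunit, 978. The membrane anchors Sdhc and Sdhd had 1572 and 1636.

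In complex III the core proteins Uqcrc2 with 2026 (rank 40) and Uqcrc1 with 1956 (rank 63) were highest. Uqcrb, a small subunit, had 1348, and Uqcrfs1, the Rieske iron-sulfur protein, was lowest with 1048. The median of the complex was 1307.

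Complex V had a median of 1413. Its highest scores were at Atp5pb of the peripheral stalk with 1882 (rank 112), and at the small membrane subunits Atp5mf with 1699 and Atp5mg with 1630. Its lowest was at Atp5f1d, the delta subunit of ATP synthase, with 596. Among the 3 genes that encode the same mature c subunit of the rotor ring, Atp5mc3 had 1480, Atp5mc2 1263 and Atp5mc1 1147. Atp5if1, which encodes the inhibitor of ATP hydrolysis, had 701 in a peak 2260 bp downstream of the TSS. Another peak, named for its neighbour Dnajc8 and with a score of 1169, was in the promoter class of Atp5if1.

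Complex IV divided by isoform. Cox7c and Cox8a had 1601 each and Cox5a 1578, while the lowest score of all members was at Cox6b2, a testis isoform, with 75. The 8 tissue-restricted isoforms had 2 marked genes: Cox6b2, and Ndufa4l2, a hypoxia-linked relative of Ndufa4, with 82 in an intergenic peak at -2587 bp (upstream) from the TSS. Cox4i2, Cox6a2, Cox7a1, Cox7b2, Cox8b and Cox8c had none. Of their 7 widely expressed counterparts 6 were marked, namely Cox8a, Ndufa4 with 1370, Cox6a1 with 1275, Cox6b1 with 1260, Cox7a2 with 911 and Cox7b with 271. The 2 marked restricted isoforms scored below all 6 marked counterparts, but the annotation class of neither peak named its own gene. That of Cox6b2 named the transcript end of Fam71e2, and Ndufa4l2 lay closest to the window's edge. The next peak named for a member lay outside the window, at -6455 bp from the TSS of Ndufv1, with a score of 47.

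**Figure D2:**
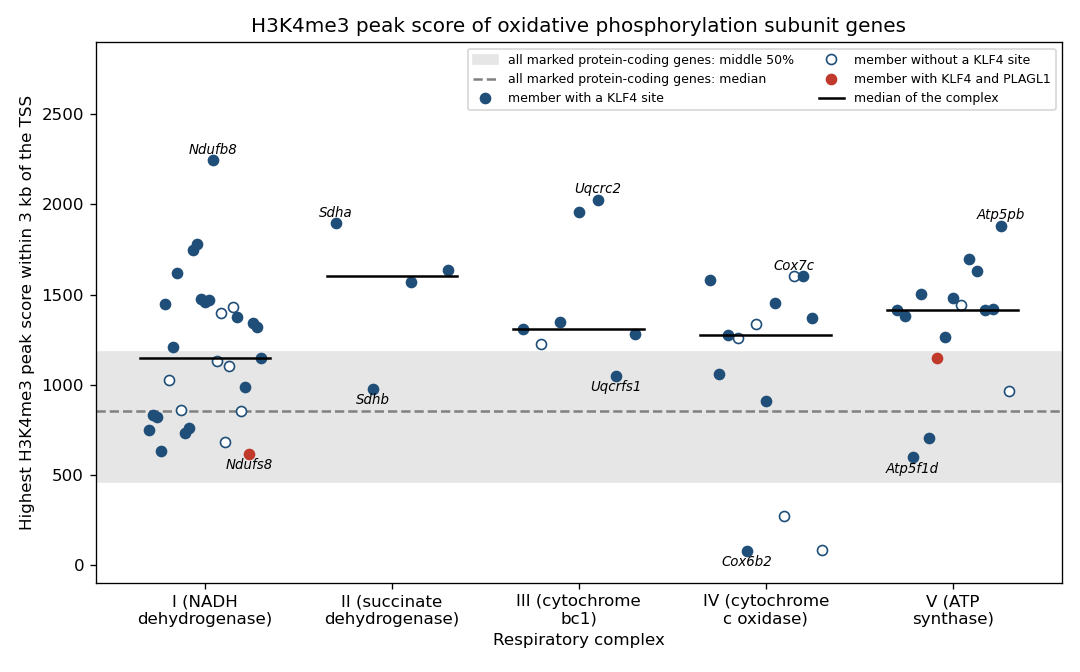
Highest H3K4me3 peak score within 3 kb of the TSS (y axis) for each marked subunit gene (1 point each) by respiratory complex (x axis), with the median of each complex as a black line and the median and middle 50% of all marked genes in grey. Most points lie above the grey median of 852, Ndufb8 is the highest at 2246, and complex IV holds the 3 lowest points.

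The 3 members on the X chromosome were Ndufb11 with 759, Ndufa1 with 749 and Cox7b with 271, all below the median of the 65 other members at 1341. All marked X-linked genes had a median of 500, and the other marked genes 870.5. The number of X chromosomes in the cells is not given in the labels, and its part in these scores was not tested.

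The 20 genes without a peak of their own fell into 2 kinds. A peak carries only 1 gene name in these files, and in 7 cases its annotation class named the promoter of a subunit gene while the nearest gene was a neighbour. These were Ndufb1 in the peak of Cpsf2 with a score of 2264, Atp5pf in that of Gabpa with 1571, Ndufs1 with Eef1b2 at 1304, Uqcrh with Lrrc41 at 1299, Ndufa2 with Ik at 1157, Atp5pd with Kctd2 at 1147 and Ndufb9 with Tatdn1 at 1005. Gabpa encodes the DNA-binding subunit of GABP, a factor of respiratory genes. Counting these, 75 of 88 genes had a peak near the TSS under their own name or that of a neighbour. Peaks named for a neighbour were not counted in this way for all protein-coding genes, so the share of all genes given above is no match for this count.

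A further 3 genes had a marked neighbour that starts within 1000 bp on the opposite strand in the reference annotation: Ndufa7 beside Rps28 with a score of 1475, Ndufb3 beside Fam126b with 1344 and Ndufa11 beside Vmac with 1102. For Cox4i1 beside Emc8 with 1122 and Atp5f1a beside Haus1 with 1962, no strand was on hand for one or both genes. The remaining 8 genes were the 6 restricted isoforms named above and Ndufb4b and Ndufb4c. At 8 marked members, Sdha, Sdhc, Uqcrb, Atp5f1c, Ndufa8, Ndufa13, Ndufb5 and Ndufs3, the peak was in the promoter class of another gene. The same count was not made over all marked genes, and the class alone does not show that a promoter is shared.

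Peaks sat over the start and reached into the gene. In 60 members whose strand was known, 57 H3K4me3 peaks spanned the TSS, with median ends at -364.5 bp and 859 bp from the TSS. These ends were not computed for all marked genes. Among all 68 members the peak centre was downstream in 60 and upstream in 8, with a median of 248.5 bp downstream, against 289 bp for all marked genes. Ndufa13, a complex I subunit also known as a regulator of cell death, was the only member with 2 peaks, which scored 632 and 210.

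The second question was where tagged PLAGL1 was found. It was found at 2 of the 68 marked members, in complex I and complex V, against 10.2% of all marked protein-coding genes. At Ndufs8, a core subunit that carries iron-sulfur clusters, the peak had a score of 66 (chr19:3962690-3963191) and lay at -166 bp from the TSS. At Atp5mc1 it had a score of 65 (chr11:95966573-95966886) and lay at -209 bp. These peaks had ranks 533 and 560 among 3463 PLAGL1 peaks, whose scores ran from 20 to 402. Both peaks lay inside the H3K4me3 peak and on a KLF4 site, and the H3K4me3 score of both genes was below the median of its complex.

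No PLAGL1 peak named for any other gene overlapped a member's H3K4me3 peak. Among the H3K4me3 peaks named for a neighbour, that of Uqcrh and Lrrc41 held a weak PLAGL1 peak with a score of 24 (chr4:115932364-115932512). Distal PLAGL1 peaks, outside the rule, were named for Atp5po at 82739 bp downstream (score 138), Uqcrfs1 at 21321 bp (123) and Atp5me at 14584 bp (40). None of these 3 overlapped an H3K4me3 peak.

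Other mitochondrial genes were read from fixed textbook lists, which were chosen with earlier results of these data known. Of 16 marked enzymes of the citric acid cycle and pyruvate dehydrogenase, 4 had a PLAGL1 peak, namely citrate synthase Cs with a score of 110, Idh2 with 49, Pdhb with 39 and Ogdh with 31. Among 4 marked electron carriers and transfer flavoproteins, Etfa had 72 and Etfdh 57. Of 12 marked regulators of mitochondrial biogenesis and gene expression, Yy1 had 36, Polg 33 and Ppargc1b 30, while Nrf1, Gabpa, Tfam and Esrra had none. These counts stand beside 10.2% of all marked genes. Among marked assembly factors a PLAGL1 peak was found at 1 of 11 for complex I (Ndufaf3, 21), 1 of 16 for complex IV (Cox14, 34), 0 of 3 for complex II and 0 of 5 for complex III.

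The same lists were read for the mark, which 52.2% of all protein-coding genes carried, at a median score of 852. The citric acid cycle list had 16 of 17 genes marked at a median score of 1452.5, and the regulators 12 of 13 at 945. The assembly factors had 11 of 14 marked for complex I (median 1120), 3 of 4 for complex II (683), 5 of 6 for complex III (686) and 16 of 20 for complex IV (1200). Subunits outside the name rule were marked too, Ndufab1 of complex I with 1336 and cytochrome c1 (Cyc1) of complex III with 1534, as was cytochrome c (Cycs) with 1828, whose testis form Cyct was not.

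The label of the cells was checked in the same library. All 10 periosteal markers had an H3K4me3 peak, against 52.2% of all protein-coding genes, with scores from 182 (Gli1) to 898 (Pdgfrb). Their median of 399 was below the 852 of all marked genes. Of other cell types, 0 of 7 skeletal muscle markers were marked, 1 of 5 endothelial markers (Kdr, 179) and 6 of 7 macrophage and osteoclast markers, with scores from 137 to 276. Gli1, Cd200 (210) and Prrx1 (273) scored within the range of the macrophage and osteoclast markers, so the scores of these lists overlap. The part of other cell types in the values of the subunit genes was not tested. The muscle markers and the muscle isoforms Cox6a2, Cox7a1 and Cox8b were alike in having no peak.

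The third question was where tagged KLF4 was found. No IgG library of the KLF4 cells is among the samples, so background signal at these sites was not tested. A KLF4 site, as listed in the authors' deposited table of consensus sites over the 6 libraries, overlapped the peak of 52 of 68 marked members, or 76.5% (Wilson 95% interval 65.1% to 85.0%), against 68.6% of all marked genes. Each of these members had 1 site. The counts were 4 of 4 in complex II, 6 of 7 in complex III, 13 of 15 in complex V, 21 of 29 in complex I and 8 of 13 in complex IV. At this number of genes the intervals overlap between all complexes, for example 54.3% to 85.3% for complex I and 35.5% to 82.3% for complex IV.

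The 16 members without a site included Ndufa5, Ndufa9, Ndufc1, Ndufc2, Ndufs3, Ndufs4 and Ndufs6 of complex I, Uqcr11, Cox6b1, Cox6c, Cox7b, Cox7c and Ndufa4l2, and Atp5me and Atp5po of complex V. Their H3K4me3 scores had a median of 1115, against 1371.5 in the 52 with a site, and the ranges overlapped. The share with KLF4 followed the H3K4me3 score in all genes. In marked genes with a score over 1500 it was 93.5%, and 15 of 16 members in that range had a site. From over 1000 to 1500 it was 84.6%, against 24 of 33 members, or 72.7% (interval 55.8% to 84.9%). From over 500 to 1000 it was 72.8%, against 12 of 16 members, and up to 500 it was 37.4%, against 1 of 3.

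**Figure D3:**
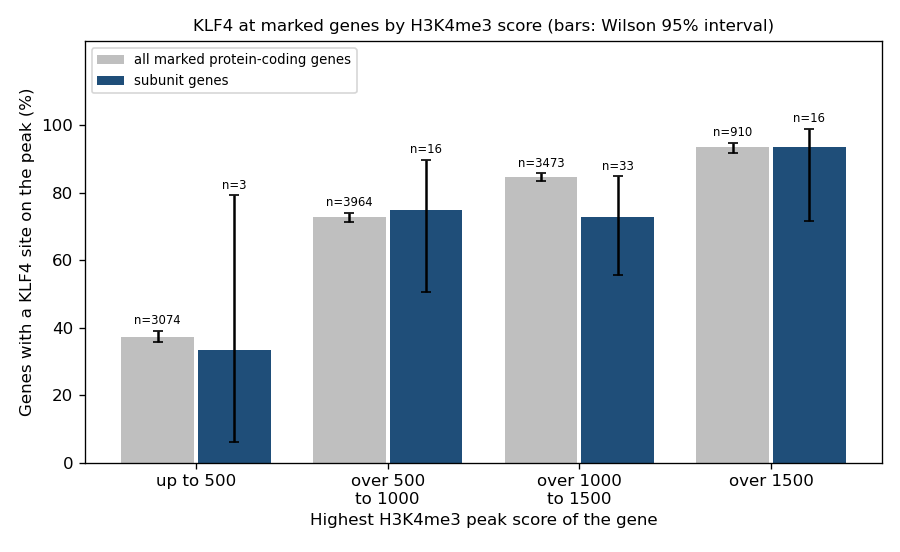
Share of genes with a KLF4 site on their H3K4me3 peak (y axis, percent) in 4 ranges of the H3K4me3 score (x axis), for all marked protein-coding genes in grey and subunit genes in blue, with Wilson 95% intervals and the number of genes. Subunit genes range from 33.3% to 93.8%, and their wide intervals hold the grey value in all 4 ranges.

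The median KLF4 signal at members was below that of all sites. The authors' deposited table gives the mean signal over the 6 libraries in log2 CPM (reads at the site scaled to library size). Its median there was 4.88 at the 52 member sites, 5.53 at all 8449 sites on peaks near a TSS and 5.08 at all 21130 sites. Per kilobase of site the medians were 5.69 log2 CPM at member sites and 6.05 at sites near a TSS. Sites in the upper 50% of signal were found at 21 members, or 30.9%, against 46.6% of all marked genes. The strongest levels in the authors' deposited table were at Ndufa13 with 7.00 log2 CPM (chr8:70354386-70355953) and Atp5f1d with 6.33, then Uqcrq, a small subunit of complex III, with 6.14, Ndufv3 with 6.09 and Ndufs8 with 6.06. The Ndufa13 site is the widest at 1568 bp, and per kilobase Atp5f1d was highest with 7.19 log2 CPM, followed by Ndufs8 with 6.74, while Ndufa13 had 6.35.

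Members with a high H3K4me3 score had both low and high KLF4 levels. Ndufb4 with 6.20 and Cox5a with 6.28 log2 CPM per kilobase in the authors' deposited table lay above the members' median and were among the most strongly marked of their complexes. Ndufb8, with the highest H3K4me3 score, had 4.88 log2 CPM per kilobase in the authors' deposited table, among the lowest, and Uqcrc2 had 5.12. Atp5f1d and Ndufs8, which led per kilobase, had the lowest H3K4me3 scores of their complexes. Cox6b2, with a score of 75, had a KLF4 level of 6.12 log2 CPM per kilobase in the same table.

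A KLF4 site counted only if it overlapped a member's H3K4me3 or PLAGL1 peak, so closeness to the start was largely set by that choice. The counts below were not made for all sites near a TSS and serve as description. Of 47 member sites with a known strand, 41 spanned the TSS and 46 had their centre within 500 bp of it. The median centre was 11 bp downstream, with 21 sites centred upstream and 26 downstream. The exception was Atp5if1, whose site lay 1915 bp downstream, inside its downstream H3K4me3 peak. The peak named for Dnajc8, in the promoter class of Atp5if1, had no KLF4 site. At Ndufs8 the KLF4 site reached from -482 to 140 bp around the TSS and the PLAGL1 peak from -417 to 84 bp. At Atp5mc1 they reached from -496 to 207 bp and from -429 to -116 bp.

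**Figure D4:**
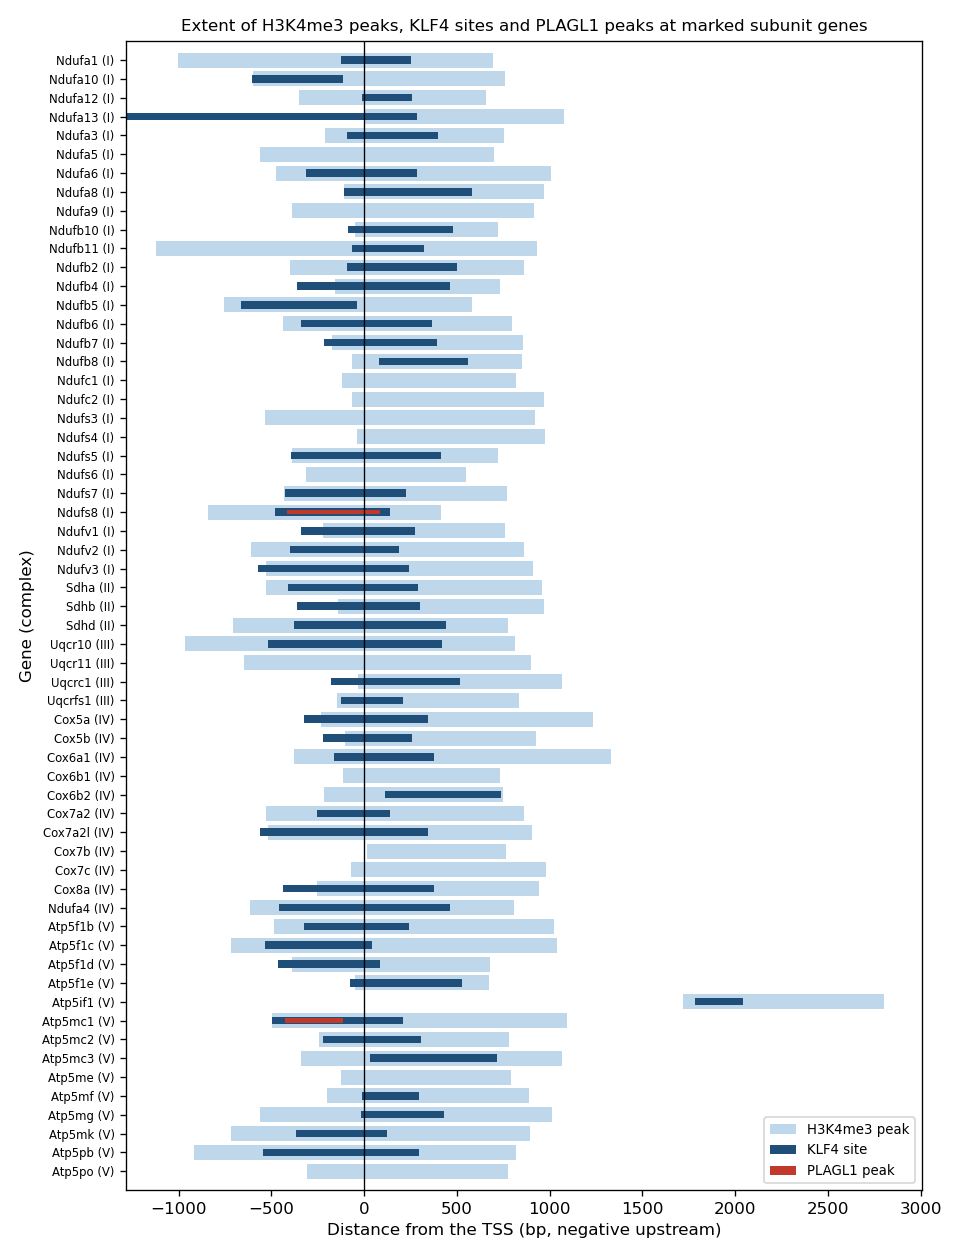
Extent of the H3K4me3 peak (light blue), the KLF4 site (dark blue) and the PLAGL1 peak (red) at 60 marked subunit genes with a known strand, in bp from the TSS (x axis, negative upstream), 1 gene a row. KLF4 sites straddle the TSS in 41 of 47 cases, and the 2 PLAGL1 peaks lie mainly upstream, at Ndufs8 and Atp5mc1.

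Sequence cores were counted in the promoter windows of 60 marked members found in the RefSeq table and of 9165 marked genes in all. The NRF1 core, with its central position free, was in 16 members, or 26.7%, against 11.3% of marked genes. The YY1 core was in 9 members, or 15.0%, against 4.95%, and the ETS and GABP core in 14, or 23.3%, against 19.3%. The SP core GGGCGG was in 45.0% of members against 71.0%, and CACCC in 51.7% against 67.8%. The PLAGL1 core GGGGCCCC was in 0 of 60, against 1.92%. The median GC content was 57.8% in members and 62.7% in all marked genes. A match is a description of the letters in these windows and not a binding site.

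The largest gap in counts between members with and without KLF4 was in the SP core, which was in 25 of 47 promoters with a site and in 2 of 13 without, with median GC contents of 59.0% and 53.0%. The CACCC core was in 25 of 47 and 6 of 13. The YY1 core was in 5 of 47 and 4 of 13, the latter at Ndufa9, Ndufc1, Ndufs4 and Ndufs6. The difference between these groups was not tested. By complex, the YY1 core was in 7 of 28 promoters of complex I, and the NRF1 core in 6 of 14 promoters of complex V.

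The last comparison set KLF4 signal in control cells against Plagl1-deficient cells, 3 libraries each. No subunit gene passed the test: of the 52 member sites, 0 had an adjusted p under 0.05 in the authors' deposited table, where 0.0473% of all 21130 sites did. At an unadjusted p under 0.05 there were also 0 of 52, where 6.46% of all sites and 4.45% of the 8449 sites near a TSS were called. The lowest p-value was 0.071 (adjusted p = 0.792 in the authors' deposited table, model over all sites), at Ndufb7. The table gives 1 log2 fold change per site without values per library, so none can be shown by sample, and its direction, control over deficient or the reverse, is not given. Signs are therefore given without a group. The labels do not say whether the 3 libraries of a group came from separate animals, so p-values may measure technical spread only.

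The fold changes were small and of both signs in every complex. The median log2 fold change in the authors' deposited table was 0.01 over the 52 member sites, with 24 negative and 28 positive, and -0.01 over all sites near a TSS. By complex the medians were 0.00 in complex I, -0.05 in II, -0.01 in III, 0.09 in IV and 0.05 in V. All 52 estimates lay within 0.5 of 0, as did 95.9% of all sites. The approximate standard error per site, from the deposited fold change and F value, had a median of 0.20 and ran from 0.10 at Ndufa13 to 0.38 at Ndufa1.

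These errors set what could be seen at each site. The approximate 95% interval lay within 0.5 on the log2 scale at 24 of 52 sites and within 1 at 51, the exception being Ndufa12 with an upper bound of 1.06. The lowest values, named after they were seen, were at Uqcrc1 (-0.40, interval -0.88 to 0.08) and Ndufb7 (-0.40, -0.83 to 0.04), and the highest at Cox7a2 (0.34, -0.18 to 0.86), all in the authors' deposited table.

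At the members with PLAGL1 the intervals were narrower than the median over members, which was 0.41 to either side. Atp5mc1 had a log2 fold change of -0.18 (-0.46 to 0.10) and Ndufs8 one of 0.18 (-0.08 to 0.43) in the authors' deposited table, of opposite sign and neither past the threshold (adjusted p = 0.891 and 0.868 there). The other c subunit genes had 0.11 (-0.31 to 0.52) at Atp5mc2 and -0.30 (-0.83 to 0.22) at Atp5mc3 in that table. The members with the strongest KLF4 levels bounded a change most tightly, with 0.04 (-0.15 to 0.23) at Ndufa13, 0.04 (-0.19 to 0.27) at Atp5f1d and 0.18 (-0.06 to 0.43) at Uqcrq in the authors' deposited table.

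**Figure D5:**
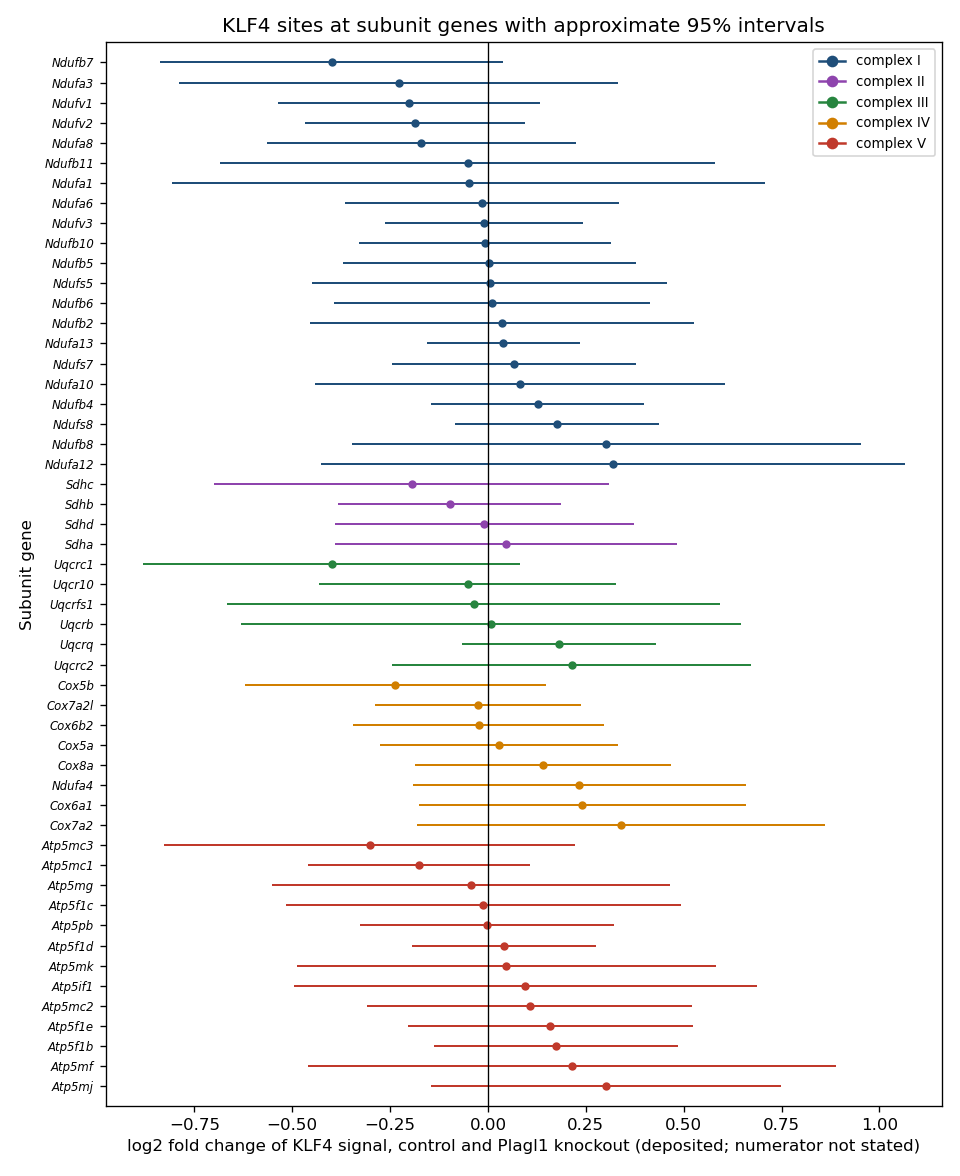
Deposited log2 fold change of KLF4 signal (x axis; numerator not stated) at the 52 sites on peaks of subunit genes (1 gene a row, coloured by complex), with approximate 95% intervals as lines. All 52 intervals include 0, and the points of each complex lie on both sides of it.

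Of the 7 promoters in peaks named for a neighbour, 6 had a KLF4 site and Ndufa2 had none. Their lowest p-value in the authors' deposited table was 0.069, at the site shared by Atp5pf and Gabpa (0.25, -0.02 to 0.52, adjusted p = 0.792 over all sites). The site shared by Uqcrh and Lrrc41, which also held the PLAGL1 peak with a score of 24, had -0.15 (-0.38 to 0.07).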

How the data were processed

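CUT&Tag libraries were grouped by their titles, and the build mm39 is named in the submitters' processing notes. Among the authors' tools these list HOMER 4.11.1, edgeR 4.2.0, MACS3 3.0.2 and Bowtie2 2.5.4, without saying what each did. The peak score and the distance to the TSS are the authors' values, per the file headers, with PLAGL1 called against IgG, per the file name. Neither the depth of a library nor a control for H3K4me3 or KLF4 is stated. KLF4 values are the authors' deposited log2 fold change, log2 CPM, F score, p-value and adjusted p-value for each consensus site. That adjustment equals the Benjamini-Hochberg adjustment over all 21130 sites. Library scaling, which sets where 0 lies, is not stated, and no counts per library were on hand for a refit.

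From these, scipy 1.17.1, numpy 2.4.6 and pandas 2.3.3 under Python 3.11.15 computed overlaps of at least 1 bp, medians, Wilson 95% intervals and motif matches, with figures by matplotlib 3.10.9. Genes were matched by identifier to a RefSeq table (GRCm38.p6), used for names, neighbours, strand and promoter letters. The promoter table held 71 of the 88 genes. The TSS position was taken from each peak's centre and its deposited distance, and isoforms can shift it. For an approximate standard error, the size of the log2 fold change was divided by the root of F. Its degrees of freedom came from F with its p-value, or were set to the median of 87.6 for F under 0.5. These calculations were tested on simulated data. No test beyond the deposited one was run. Genes named in the text were those with a PLAGL1 peak, without an H3K4me3 peak or with several, the 3 highest and the lowest H3K4me3 score per complex, the 5 strongest KLF4 levels, members with a deposited p under 0.05, and the tissue-restricted isoforms with their counterparts; others serve as examples. Members, lists and motifs were chosen with earlier results of these data known. The deposited tables hold 0 further columns of values per sample. The values of 1 member are counted but not reported here by name.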

Additional observations from a re-analysis of the deposited data

How the results depend on the processing

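The counts and medians were recomputed under 23 alternatives, of which 21 stayed close to the reported value. Only peaks of the promoter class left 19 marked members in place of 68, since the other peaks carry another class, most often intron (36) or exon (7). Only sites in the upper 50% of KLF4 signal left 21 members with KLF4 in place of 52. A window of 1000 bp gave 66 marked members and 51 with KLF4. Peaks named for a neighbour, an alternative chosen after seeing the data, gave 75 marked members, 58 with KLF4 and 3 with PLAGL1. The count of KLF4 sites called in the authors' deposited table was 0 at adjusted p, at unadjusted p and adjusted over autosomes. The median log2 fold change in that table stayed between 0.003 and 0.006. No paired analysis was possible because the deposited table holds no values per library, and for the same reason no replicate could be left out. The depth of the libraries is not stated, and its part in which genes have a peak was not tested.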
